A study of Ovis aries with 2 samples.

Results

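Of the 2288 intervals called in chromatin precipitated with an antibody against PPARG from day 14 sheep conceptuses, 770 were left without an assigned gene in the authors' annotation (33.7%, Wilson 95% interval 31.7 to 35.6). They were taken as every PPARG interval whose gene count in the deposited table was 0, and no signal value entered the choice. The conceptus is the embryo with its extraembryonic membranes, flushed here from the uterus of columbia/ramboulette crossbred ewes. There was 1 PPARG ChIP library, made with a rabbit polyclonal antibody, and 1 input library of unprecipitated chromatin, each described as a pool of 4 conceptuses. The values carry no spread between animals and no test was made between libraries. The labels give no treatment and no genotype, and ChIP intervals do not measure the expression by which a tissue's markers would be checked.

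PPARG is a ligand-activated nuclear receptor that binds DNA as a heterodimer with a retinoid X receptor and recruits coactivators when a fatty acid or other lipid ligand is present. It is best known for its part in fat cell formation and lipid storage, and in the mouse it is also needed in the trophoblast for the placenta to form. Nuclear receptors of this kind bind not only at promoters but also at enhancers, which can lie far from the genes they act on. Intervals without an assigned gene are those that lie outside gene bodies and outside the window around genes that the authors used. The upstream side of that window reached -10470 bp from the gene start, at C24H16orf13, and the next farthest assignments were -10453 bp for NUTF2 and -10427 bp for TRMT112. Positions are on build Oar_v3.1, which the submitters' processing notes name, and no bases are shown because no genome of that build was used here.

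The intervals without a gene had a slightly lower median height and length than the rest. Height is the highest value of the authors' fragment-density track in an interval, in signal units of unknown scaling, and the depth of neither library is known. Heights ran from 10 to 123 with a median of 21 (order-statistic 95% interval 20 to 22) and quartiles of 16 and 28, against a median of 22 in the 1518 intervals with a gene and 22 in all 2288. By position, the median was 22 for the 845 intervals in a gene, 25 for the 537 upstream of one and 21 for the 136 downstream. Median length was 849.5 bp (832 to 874) without a gene and 888 bp with one. Mean signal over the interval had a median of 10.1 without a gene and 10.5 with one. Regions are not replicates and these intervals cover counting error only, so the differences are given as descriptions with no test.

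Intervals without a gene were a smaller share of the highest intervals than of the others. They made up 236 of the 649 intervals at heights up to 17 (36.4%, Wilson 95% interval 32.8 to 40.1), 193 of the 546 above 17 and up to 22 (35.3%), 193 of the 543 above 22 and up to 31 (35.5%) and 148 of the 550 above 31 (26.9%, 23.4 to 30.8). That highest band held 24.0% of all PPARG intervals. Of the 100 highest PPARG intervals 15 had no gene (15.0%, 9.31 to 23.3), and of the 20 highest 4 had none. Sites also listed for input, described below, are among those counted, and they ranked 2, 18 and 26 by height among all PPARG intervals. A height of at least 40 was reached by 73 intervals without a gene (9.48%) against 315 of all intervals (13.8%), and a height of at least 60 by 15 (1.95%) against 100 (4.37%). At a height of at least 100 the shares were 0.390% and 0.306%, from 3 and 7 intervals. By position, the upper quartile of height was 28 without a gene, 29 downstream of one, 30 in one and 37 upstream. Among intervals without a CpG island, a mark described below, heights with and without a gene had the same median of 21 and the same quartiles of 16 and 28. The smaller share at the top was thus not seen against every class.

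**Figure D1:**
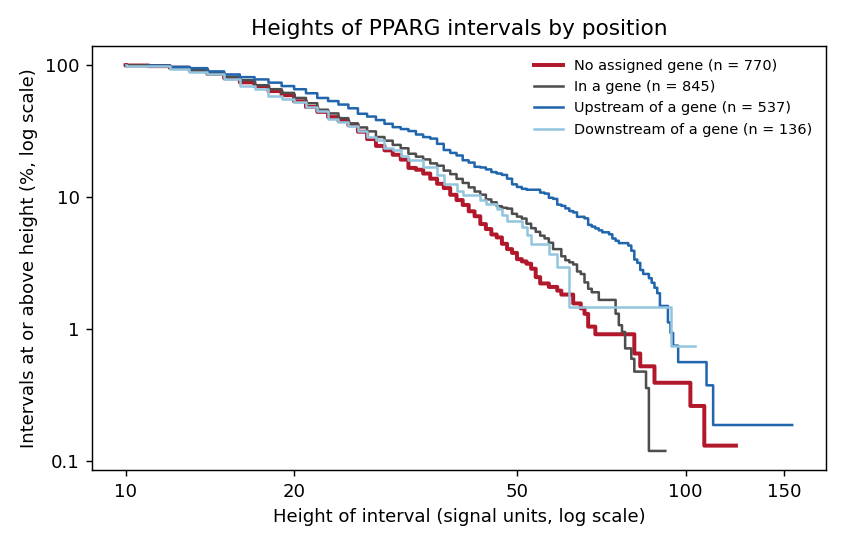
Share of PPARG intervals (vertical axis, percent, log scale) at or above each height (horizontal axis, signal units, log scale), for intervals without an assigned gene, in a gene, upstream of one and downstream of one. The line of the 770 intervals without a gene starts with the others at a height of 10, runs below that of the upstream class, and ends at 123.

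Of the 770 intervals without a gene, 3 overlapped an interval listed for input, against 0.219% of all PPARG intervals, and each shared its bounds with it. The input library had 5 intervals in all. These 3 sites ranked 1, 4 and 5 by height among the intervals without a gene. On chromosome 9, 52248478 to 52249237, the mean signal was 57.4 in the PPARG library and 39.4 in input, a ratio of 1.45, and the heights were 123 and 93. On chromosome 2, 161512004 to 161512809, the mean signal was 26.4 in the PPARG library over 25 bins and 20.7 in input over 16 bins, a ratio of 1.28, while the heights of 88 and 43 gave a ratio of 2.05. On chromosome 7, 7442376 to 7443317, the mean signal was 26.1 in the PPARG library and 7.41 in input, a ratio of 3.53, and the heights of 83 and 23 gave a ratio of 3.61. The site on chromosome 7 had the highest ratio by either measure. The lowest was on chromosome 2 by mean signal and on chromosome 9 by height. On chromosome 2 the means were taken over unlike numbers of bins within the same bounds, 25 and 16. The bins were 24 and 23 on chromosome 9 and 29 in both libraries on chromosome 7. The ratio of means on chromosome 2 is thus not like for like with the others. The summit in the PPARG library minus that in input was -16, 0 and -16 bp at the sites on chromosomes 9, 2 and 7. The scaling between libraries is not stated, so the ratios measure no enrichment.

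The ratio of height to mean signal, which is larger for a sharper peak, had a median of 2.10 over the intervals without a gene and 2.16 over those with one. In the 20 highest without a gene it ran from 2.14 to 4.01 with a median of 3.12, and the lowest value was that of the chromosome 9 site, with the next at 2.49. The other sites listed for input had 3.33 on chromosome 2 and 3.18 on chromosome 7. The ratio itself went with height over the 770 intervals (Pearson r = 0.779, Spearman rho = 0.844). The second highest mean signal, 32.3, was in the shortest interval without a gene, 301 bp on chromosome 1 from 202896390 to 202896691, whose height of 47 was 1.45 times its mean. That interval was singled out after its values were seen, and it was not listed for input. Height also went with length (Pearson r = 0.465, Spearman rho = 0.515) and with mean signal (r = 0.925, rho = 0.914) across these intervals. All of these measures come from the same track, and the correlations are descriptions across regions of 1 library.

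**Figure D2:**
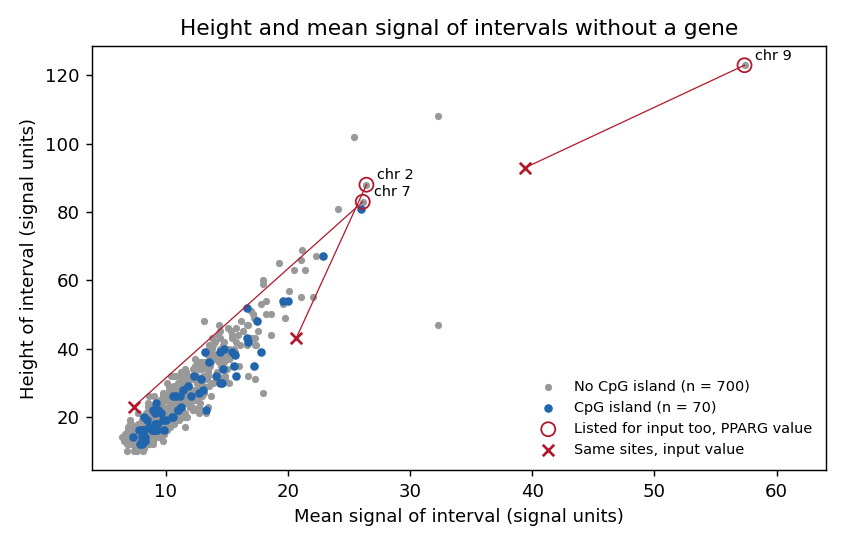
Height (vertical axis, signal units) against mean signal (horizontal axis, signal units) of each interval without an assigned gene, with and without a CpG island. Rings mark the PPARG values of the 3 sites also listed for input and crosses, joined to them by lines, the input values; on chromosome 9 these are heights of 123 and 93.

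CpG islands, the GC-rich stretches that mark many promoters, were found at 70 of the 770 intervals without a gene (9.09%, Wilson 95% interval 7.26 to 11.3), and 2 of these held 2 islands. Over all PPARG intervals 24.8% carried the mark, and by position it was 23.8% in a gene, 51.6% upstream of one and 14.7% downstream. These classes include promoters. A promoter was marked at 749 of the 1518 intervals with a gene, and at 423 of the 498 with both a gene and an island. The shares with and without a gene are thus not for like positions. None of the intervals without a gene was marked with a promoter, which follows from how they were chosen, since a promoter lies at a gene. Among intervals without a gene the median height was 22 with a CpG island (order-statistic 95% interval 20 to 28) and 21 without (20 to 22). Their upper quartiles were 33.5 and 28. Among intervals with a gene the median was 27 with an island (25 to 29) and 21 without (21 to 22), with upper quartiles of 40 and 28. Lengths of intervals without a gene had medians of 912.5 bp with an island and 848 bp without.

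The highest intervals with a CpG island and no gene are named here with their neighbours, and the 10 highest lay on 9 chromosomes. The highest, 81 on chromosome 18 from 65534704 to 65535670, lay between the intervals of WDR25 and of RCOR1, a corepressor gene, at 1554 and 573 kb. A second island interval in the same stretch, with 52 from 65969271 to 65971078, was 138 kb from that of RCOR1. On chromosome 11, 20328325 to 20329136, a height of 67 was 139 kb from the interval of GIT1 and ANKRD13B. On chromosome 19, 58089104 to 58090727, an interval with 2 islands and a height of 54 lay 64.2 kb from an interval in WNT7A, a Wnt ligand gene. Another with a height of 54, on chromosome 23 from 46837922 to 46839069, had its nearest gene-assigned interval, in DYM, 2415 kb away. The remaining 5 of the 10 highest had heights from 39 to 48, on chromosomes 7, 13, 9, 1 and 22. Their nearest intervals with a gene were those of LOC101115969, PMEPA1, LOC101105167, XXYLT1 and AVPI1.

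The 20 highest intervals without a gene had heights from 54 to 123 and lay on 12 chromosomes, and 3 held a CpG island. After the chromosome 9 site, the highest was 108 on chromosome 18 from 68030359 to 68031954, beyond the last gene-assigned interval of the chromosome, 524 kb past that of ASPG, an asparaginase gene. A second one of 69 stood 8.26 kb from it, at 68038806 to 68040032. On chromosome 11, 18095067 to 18096572, a height of 102 was 104 kb from an interval in RAB11FIP4, a regulator of membrane recycling, and its ratio of height to mean of 4.01 was the sharpest of the 20. A lower interval of 16 with a CpG island stood 2.56 kb away. Chromosome 24 held 65 at 35509339 to 35511135, which was 32.4 kb from the interval of VGF and AP1S1, and 66 at 37753981 to 37755223, which was 19.2 kb from that of LMTK2, a kinase gene. On chromosome 14, 11011946 to 11012851, a height of 55 was 38.6 kb from an interval in GSE1. The median distance to the nearest interval with a gene was 528 kb over the 20 and 484 kb over all 770.

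Gene names around an interval came from the nearest intervals with a gene on either side. Of 588 intervals whose neighbours on both sides matched a protein-coding gene of the RefSeq table, a median of 20 protein-coding genes lay between the neighbours, with quartiles of 11 and 37, so for most of them the neighbours do not single out a gene. At most 5 genes lay between in 73 cases, with heights from 10 to 81 and a median of 24. RefSeq describes a newer assembly, ARS-UI_Ramb_v3.0, and served only for the order and the numbers of genes. All 1120 pairs of neighbouring names compared were in the same order in both. Genes named as lying between have no interval in the authors' table, which follows from how they were found, and where each lies relative to the interval on Oar_v3.1 was not measured.

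One of the highest intervals without a gene lay in a stretch that holds PLIN2, which encodes a coat protein of lipid droplets and is a textbook PPAR target. It had a height of 81, the seventh highest without a gene, on chromosome 2 from 87129945 to 87132029, and at 2084 bp it was among the 5 longest. The interval of HAUS6, RRAGA and FAM154A lay 89.4 kb to one side with a height of 61, and that of DENND4C, ACER2 and LOC100037665 lay 173 kb to the other with 39. PLIN2 was the only protein-coding gene between HAUS6 and DENND4C in the RefSeq order. It was also the only member of the 5 gene lists described later to lie in a stretch of at most 5 genes. Such stretches held 132 named genes, and the lists hold 183 genes, against 21300 protein-coding genes in RefSeq. At that share of all genes, PLIN2 alone is no excess of list members. Both flanking intervals carried a CpG island and the one between them did not.

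A run of 6 intervals without a gene stood between those of MYSM1 and FGGY on chromosome 1, where JUN, an AP-1 transcription factor gene, was the only protein-coding gene in the RefSeq order. Their heights were 21, 28, 23, 40, 20 and 22, set against 28 at MYSM1 and 25 at FGGY. Of these, 5 lay within 121 kb, from 33272423 to 33393429, and the other was 310.6 kb further on. None of the 6 carried a CpG island. The stretch was singled out because it held 6 intervals and 1 gene between its ends. Its density of 7.94 intervals per Mb was exceeded by 14 of the 387 stretches that held an interval without a gene, among them LMTK2 to CCZ1 with 18.7 and SLC25A25 to CDK9 with 16.5. On chromosome 7, an interval of 13 lay between those of TMED10 and JDP2, with FOS, the AP-1 partner of JUN, between them. This interval was picked as an example and not by rank, and its height was below the lower quartile of 16 for intervals without a gene.

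**Figure D3:**
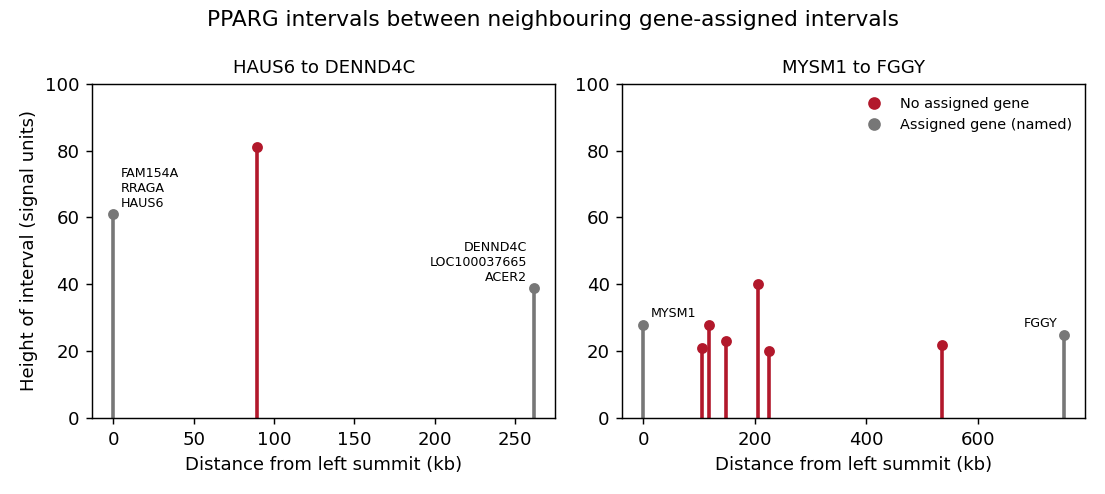
Heights of PPARG intervals (vertical axis, signal units) by distance from the left gene-assigned interval (horizontal axis, kb), for the stretches from HAUS6 to DENND4C and from MYSM1 to FGGY. Intervals without an assigned gene stand at 81 in the first stretch and between 20 and 40 in the second, beside named intervals with a gene.

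Further stretches with at most 5 genes between their ends are given as examples, picked after their values were seen. Between STPG1 and SRSF10 on chromosome 2, 3 intervals of 26, 20 and 23 stood in a stretch of 410 kb with GRHL3, an epithelial transcription factor gene, IFNLR1, IL22RA1 and MYOM3. Intervals of 28 and 26 stood between COQ5 and SPPL3 on chromosome 17, a stretch with ACADS, the short-chain acyl-CoA dehydrogenase gene of fatty acid oxidation, POP5, CABP1, MLEC and UNC119B. An interval of 51 on chromosome 5 from 92515324 lay between RHOBTB3 and ELL2, with GLRX, a glutaredoxin gene, between. An interval of 32 lay between RAD51B and ACTN1 with ZFP36L1, an mRNA decay factor gene, and an interval of 31 lay between ARL15 and FST, the follistatin gene, with NDUFS4 of respiratory complex I. Near GIT1, the interval of 67 shared its stretch with a second of 36 and with CRYBA1, NUFIP2, TAOK1, ABHD15 and TP53I13.

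No protein-coding gene lay between the neighbours of 6 intervals. They were 41 on chromosome 2 between ZBTB40 and WNT4, a Wnt ligand gene whose interval was 38.9 kb away, and 38 on chromosome 7 between NPTN and CD276. An interval of 36 lay between LIN28A, an RNA-binding pluripotency factor gene, and ZNF683, at 21.0 and 24.5 kb. The lower ones were 18 between DGUOK and TET3, a DNA demethylation enzyme gene, with a CpG island, 14 between DENR and HCAR1, a lactate receptor gene, and 13 between RAI14 and C1QTNF3.

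Genes of 5 lists, for lipid metabolism, nuclear receptors, trophoblast, epiblast and endoderm, and prostaglandins and steroids, were searched for an interval without a gene within 100 kb of their start. Of the 46 listed genes with an interval of their own, 4 had one (8.70%, Wilson 95% interval 3.43 to 20.3), near the share among all 1859 pairs of gene and chromosome that the authors listed, 132 (7.10%, 6.02 to 8.36). In the lipid list it was 2 of the 25 members with an interval of their own. For CPT1A, the carnitine palmitoyltransferase that starts mitochondrial import of fatty acids, the interval without a gene had a height of 30 and a CpG island, 15.7 kb from the start, against 46 for the highest interval of CPT1A itself. For HILPDA, a lipid droplet protein gene, it had 24, at 77.5 or 82.1 kb depending on the strand, against 59 for its own. In the epiblast list it was 1 of 2, LIN28A, with 36 at 11.1 or 30.9 kb against 28 for its own interval. In the prostaglandin and steroid list it was 1 of 6, HSD17B12, a fatty acid elongation enzyme gene, with 31 at 29.9 kb against 21 for its own. None of the 8 nuclear receptor and cofactor genes or the 6 trophoblast genes with an interval of their own had one. The numbers are small and no test was made.

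Close neighbours of intervals without a gene mostly lacked one too, and close neighbours of intervals with a gene mostly had one. The nearest other PPARG summit was a median of 138 kb away, against 130 kb for intervals with a gene, and lay within 10 kb for 108 (14.0%, Wilson 95% interval 11.8 to 16.7), against 13.8% of all PPARG intervals. For 101 of these 108 a neighbour within 10 kb had no gene. Among intervals with a gene, 207 had a neighbour within 10 kb, and for 200 of them such a neighbour had a gene. At closer range, all 69 intervals without a gene that had a neighbour within 5 kb had one without a gene. None of them had a gene-assigned interval that near. Likewise, all 137 intervals with a gene that had a neighbour within 5 kb had one with a gene. Genes were assigned by distance, so an interval close to one with a gene is often assigned to that gene too. Within 50 kb another interval, with a gene, was found for 82 (10.6%, 8.66 to 13.0), against 23.3% of all PPARG intervals and 29.6% of those with a gene. Within 1000 kb it was found for 500 (64.9%), against 77.1% and 83.3%. These contrasts are in part built into the split, because intervals near genes were assigned to them.

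**Figure D4:**
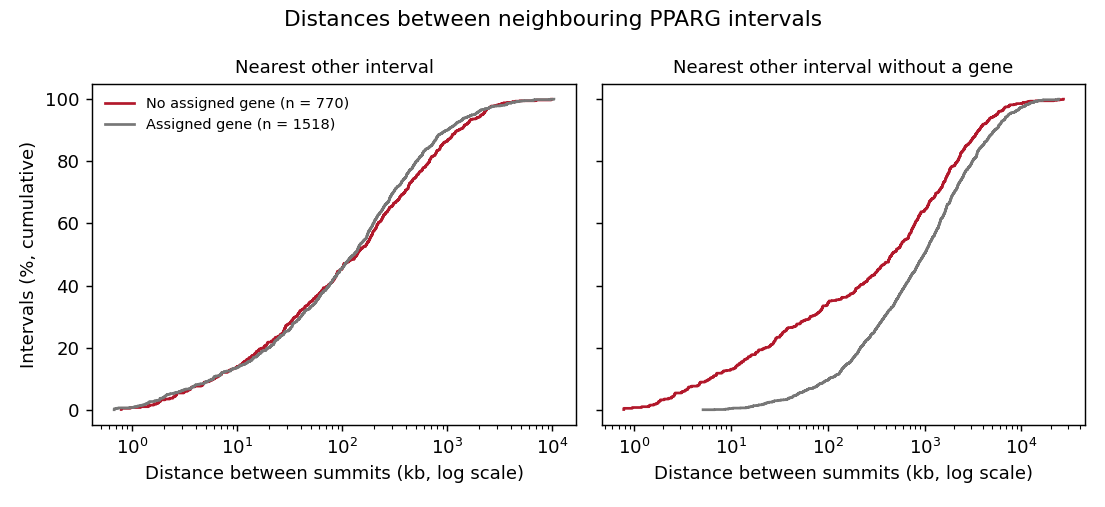
Cumulative share of intervals (vertical axis, percent) by distance between summits (horizontal axis, kb, log scale) to the nearest other PPARG interval and to the nearest other one without a gene, for intervals without and with an assigned gene. The lines run together for any interval, with medians of 138 and 130 kb, and apart for intervals without a gene, with medians of 460 and 984 kb.

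With gaps under 10 kb, 107 intervals (13.9%) fell into 50 groups, of which 44 had 2 members, 5 had 3 and 1 had 4. The group of 4 lay on chromosome 3 over 12.8 kb from 8134934 to 8147745, with heights of 11, 18, 15 and 23, between SLC25A25 with NAIF1 and CDK9. A group of 3 with 27, 39 and 13 lay between ARHGAP29 and TMEM56 on chromosome 1, and one of 31, 27 and 14 lay between THADA and CDKL4 on chromosome 3, the middle one with a CpG island. On chromosome 18, 18, 23 and 27 stood over 11.6 kb between SEMA4B and BLM, the last 23.9 kb from the interval of BLM. On chromosome 16, 23, 16 and 15 stood before the first gene-assigned interval, that of SPDL1. The sixth group, of 21, 39 and 11 on chromosome 1, was part of a longer run. In windows of 150 kb, chosen after the data were seen, the largest count was 8 intervals over 123 kb, from 191841323 to 191963861, with heights from 11 to 53 and no interval with a gene.

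At the other extreme, the most isolated interval without a gene had 26 and a CpG island, on chromosome 9 from 3840380 to 3840975, with no other PPARG summit within 9813 kb. The next, with 17 on chromosome 23, was 9751 kb from ZNF521. Of the 5 most isolated, which had heights of 16 to 42, 4 carried a CpG island, against 9.09% of all 770. With 5 intervals picked by rank, this cannot tell whether isolation goes with islands. Over the whole part, the nearest other PPARG summit was a median of 184 kb away for the 70 with an island and 135 kb for the 700 without. Over all PPARG intervals these medians were 179 and 110 kb, and the difference was not tested. The longest intervals without a gene measured from 2084 to 2231 bp, the longest on chromosome 19 from 29316202 to 29318433 with a height of 34.

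Chromosomes differed in how many of their intervals had no gene. The share ran from 11.1% on chromosome 26, from 3 of 27 intervals (Wilson 95% interval 3.85 to 28.1), and 12.2% on chromosome 14 (Wilson 95% interval 7.15 to 20.2), to 59.5% on chromosome 9 (44.5 to 73.0), the only chromosome with over 50% unassigned. Chromosome 20 had the highest density without a gene, 0.755 per Mb as measured to the end of its last interval (95% interval 0.534 to 1.04, exact Poisson), 2.49 times that of all chromosomes, followed by chromosome 11 with 0.600 and chromosome 13 with 0.580. Intervals with a gene were 1.53 times as dense on chromosome 20 as over all chromosomes. On chromosome 11 the excess was 1.98-fold for intervals without a gene and 3.02-fold for those with one. On chromosome 13 it was 1.92-fold and 1.04-fold. Chromosome 14 was at 0.634 times the overall density without a gene and 2.30 times with one.

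**Figure D5:**
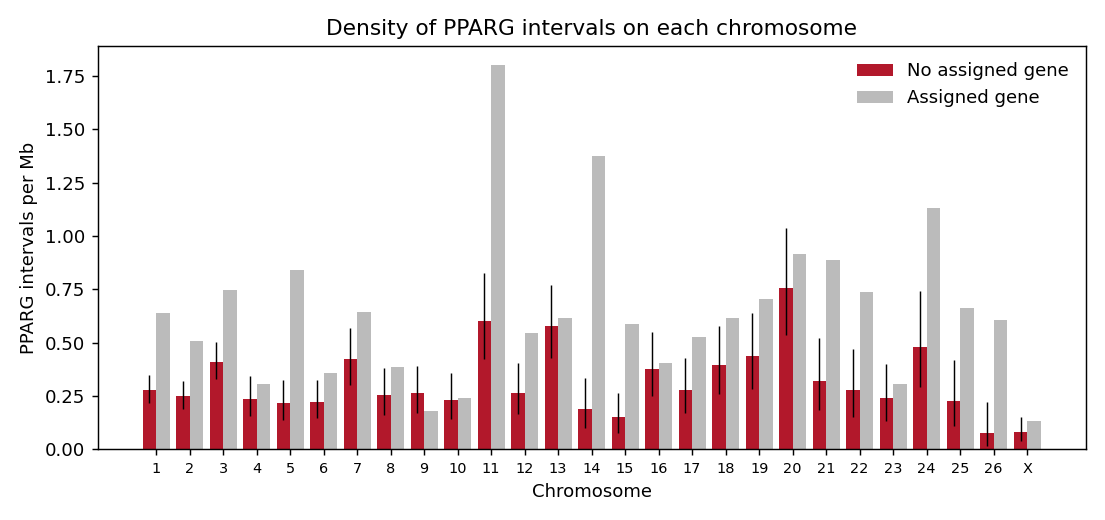
PPARG intervals per Mb (vertical axis) on each chromosome (horizontal axis), up to the last interval, without an assigned gene and with one. Lines on the bars without a gene are exact Poisson 95% intervals; that bar is highest on chromosome 20, at 0.755, and the bar with a gene on chromosome 11.

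The density of intervals was set beside that of genes. Across the 27 chromosomes, intervals without a gene per Mb had a Pearson r of 0.422 and a Spearman rho of 0.360 with RefSeq protein-coding genes per Mb, against 0.899 and 0.827 for intervals with a gene. The share without a gene was lower on chromosomes with more genes per Mb (r = -0.506, rho = -0.516). Genes were assigned by distance, so both contrasts are in part built into the split: more of a gene-dense chromosome lies near a gene. Gene numbers come from the newer assembly and all points share 1 library, so the values are descriptions. Counted by stretch between neighbouring gene-assigned intervals, 13 lay between KIF13A and CAGE1 on chromosome 20, 12 between GATA3 and KIAA1217 on chromosome 13, and 10 between LOC101105840 and CPXM1 on the same chromosome. Stretches with 5 or more numbered 21, held 146 of the 770 intervals and spanned from 756 to 31605 kb.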

How the data were processed

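The deposited table lists intervals of the PPARG and the input library, with highest and mean signal of a density track, lengths, and counts of CpG islands, promoters and genes, as the authors made them. Alignment with BWA to Oar_v3.1 is named in the submitters' processing notes, and neither these nor the labels state the interval caller, thresholds, scaling or annotation. The mean signal times the bin number was whole, within 0.01, in 100% of PPARG intervals, with bins of 31.9 bp.

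Intervals without a gene were read with pandas 2.3.3 in Python 3.11.15. Distances run between summits. Shares carry Wilson and medians order-statistic 95% intervals (scipy 1.17.1), checked on simulated data, and cover counting error only. No test was made: each group has 1 library. Intervals were named by rank of height, length, isolation, CpG island, input and grouping, with exceptions stated. Of 1859 gene and chromosome pairs, 1564 (84.1%) matched a RefSeq protein-coding gene on the same chromosome. Members and lists were chosen with earlier results of these data known. No genome of the build was used here, so no sequence is shown.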

Additional observations from a re-analysis of the deposited data

How the results depend on the processing

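Of 40 alternatives for 8 results, 24 left the value within the 95% interval of the main one and 16 did not. Keeping intervals at or above the median height gave a median height of 29, a median length of 967 bp, a share without a gene of 30.9%, 6.74% with another interval within 10 kb and 6.20% with a gene-assigned one within 50 kb. At or above the upper quartile these were 38, 1072 bp, 27.6%, 3.73% and 3.73%, and 13.7% had a CpG island. The medians of height and length move by construction, since low intervals are left out. Distances were measured again among the intervals kept, so a neighbour left out no longer counts and the 10 and 50 kb shares tend to fall. The cause of the other shifts was not tested. Joining intervals under 5 kb apart left 3.71% with another within 10 kb, which follows from the joining. Windows of 5 and 50 kb gave 8.96% and 34.9% there, and windows of 20 and 100 kb gave 3.12% and 17.7% with a gene-assigned interval. Leaving out the input intervals or the X chromosome kept the 7 values they were run on within that interval, and 50% overlap left 3 input sites. The density ratio on chromosome 11 ran from 1.54 to 1.99, and at or above the upper quartile of height its 95% interval, 0.710 to 3.26 from 6 of 161 intervals, included 1. No paired analysis was possible because each group has 1 library. Read totals are unknown, so depth limits cannot be given.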
